A study of Saccharomyces cerevisiae with 5 samples.

Results

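The 32 genes described here encode the enzymes of the tricarboxylic acid cycle other than succinate dehydrogenase, the glyoxylate cycle and gluconeogenesis, together with the acetyl-CoA synthetases, pyruvate carboxylases, malic enzyme, 3 transporters and the regulators CAT8 and ADR1. They were chosen by name, out of 5379 genes with a named probe, and each had 1 probe. The study set mRNA of Saccharomyces cerevisiae S288C given copper sulfate at 10 mM for 2 h against mRNA of the same strain left untreated for those 2 h. Both cultures were growing exponentially at 25 °C in rich medium with 2% glucose, and S288C carries a transposon in HAP1, a gene for an activator of respiratory genes. On each of 3 two-colour arrays the treated cDNA carried Cy5 and the control cDNA Cy3, so a dye effect on a single gene cannot be told apart from an effect of copper. Values are log2 ratios, most likely of treated over control. The labels list the treated channel ahead of the control, which is the basis for this direction, and the words rose and fell would change places under the other direction.

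The mitochondrial cycle oxidises acetyl-CoA and supplies 2-oxoglutarate and other precursors. The glyoxylate cycle bypasses its decarboxylating steps, so that yeast can make sugar precursors from acetate or ethanol, and gluconeogenesis then turns oxaloacetate into hexose phosphate. Glucose represses most genes of the glyoxylate cycle and gluconeogenesis in this yeast: the kinase Snf1 and the activators Cat8 and Adr1 switch them on once glucose is gone. Several steps exist as isoenzymes in mitochondria, peroxisomes and cytosol, each from a gene of its own.

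The arrays were described as independent biological samples. The p-values rest on spread between these 3 arrays alone, and so small a number of arrays also limits the precision. In limma's fit the variance of each gene was moderated towards that of all genes tested (6.13 prior degrees of freedom). Values were held by 5367, 5264 and 5952 of 6912 spots on the scans of replicate 1 and the high-power scans of replicates 2 and 3. Across genes, the arrays had Pearson correlations of 0.693 (replicates 1 and 2), 0.648 (1 and 3) and 0.592 (2 and 3). The limma test covered 4824 genes with a value on every array, including 30 of the 32 genes. Aconitase (ACO1) and the succinate-fumarate carrier (SFC1) lacked a value on at least 1 array and were not tested.

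Few central carbon genes passed the test. Of the 30 tested, 1 fell (CAT8) and 0 rose, at an adjusted p of 0.05 in limma's test with Benjamini-Hochberg adjustment. Among all 4824 genes 23.5% passed, 11.5% upward and 12.0% downward. An unadjusted p under 0.05 was held by 10 of the 30 genes and by 40.2% of all genes. The mean log2 ratios lay between -0.56 and 0.53, with a median of 0.07, against a median of -0.04 over all genes, and 0 of the 30 reached a 2-fold mean change. The 95% interval of the mean lay within a 2-fold change in either direction for 29 of them and for 81.8% of all genes. LSC2 was the exception. These intervals had a median half-width of 0.37 on the log2 scale among the 30 genes and 0.36 among all genes, so a mean nearer to 0 than about that size was not told from 0 even before adjustment. The signs on the 3 arrays were the same for 12 of the 30 genes (40.0%), against 59.4% of all genes.

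**Figure D1:**
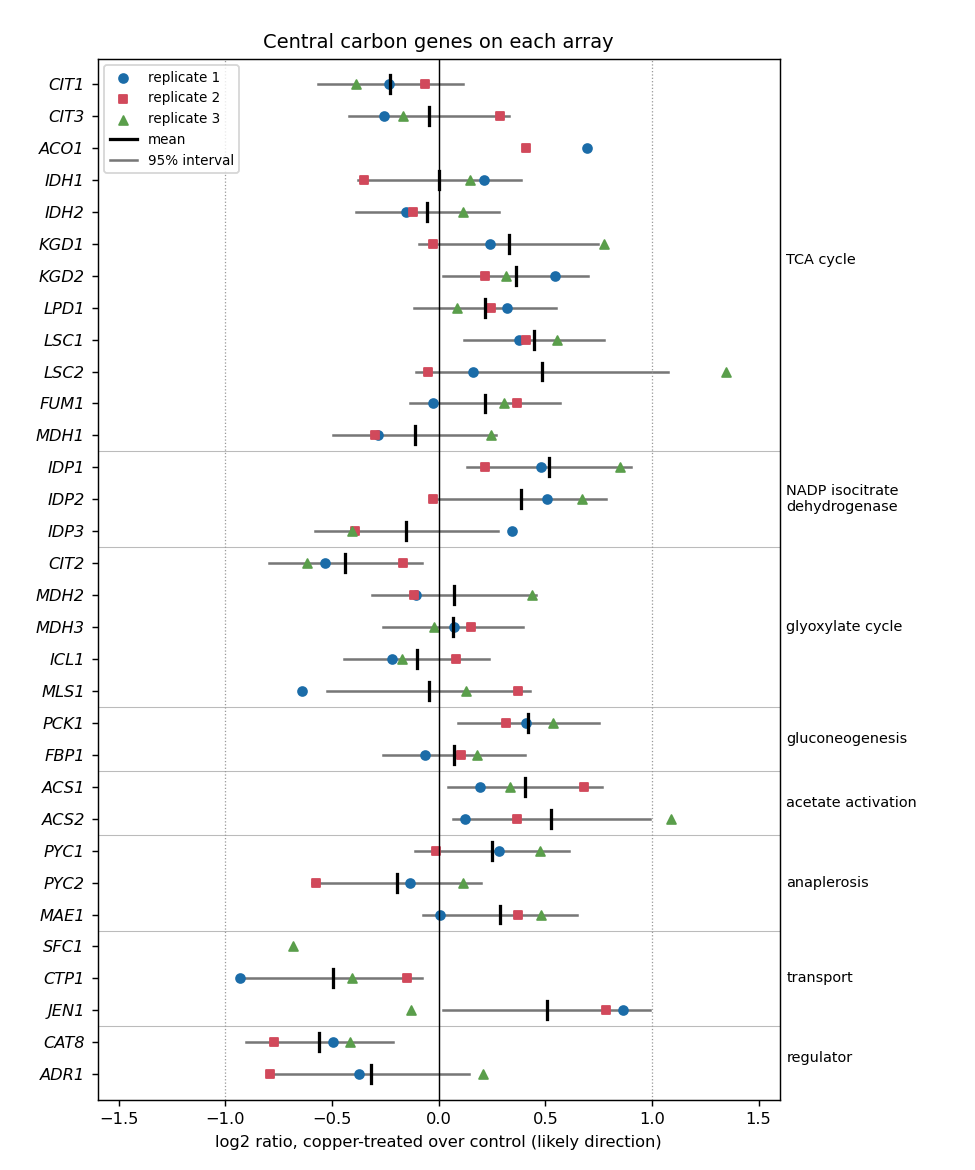
Log2 ratio of copper-treated over control cells for each of the 32 genes, grouped by role. Points are the 3 arrays, black ticks their mean, grey lines the 95% interval of limma's fit and dotted lines a 2-fold change. Only LSC2's interval crosses a dotted line, and ACO1 and SFC1 have points but no mean.

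Counts of calls near the threshold moved with the processing. Of genes that missed it, LSC1 (adjusted p = 0.0550), IDP1 (0.0572) and PCK1 (0.0665) were closest. Centring each array on its own median gave 3 higher and 1 lower among the 30 genes, in place of 0 and 1, by adding these 3. Across all genes that centring gave 645 higher and 500 lower, in place of 556 and 578.

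Entry into the cycle showed no called change. CIT1 (YNR001C), the main mitochondrial citrate synthase, had log2 ratios of -0.23, -0.06 and -0.39 on replicates 1, 2 and 3. All 3 lay below 0, with a mean of -0.23 ± 0.16 (SD, n = 3; adjusted p = 0.286). CIT3 (YPR001W), a minor mitochondrial synthase that also acts on propionyl-CoA, had -0.26, 0.29 and -0.17, which lay on both sides of 0. ACO1 (YLR304C), the iron-sulfur enzyme that turns citrate into isocitrate, read 0.69 on replicate 1 and 0.41 on replicate 2, while the high-power scan of replicate 3 held no value for it. Its low-power scan there, which the submitters set aside for quality, held 0.52. With the mean of both scans as the value of replicate 3, ACO1 averaged 0.54 and passed the threshold (adjusted p = 0.0338). On the first 2 arrays alone it averaged 0.55 and did not (0.0867).

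The NAD-linked isocitrate dehydrogenase, the regulated step after aconitase, is an octamer of Idh1 and Idh2. IDH1 (YNL037C) had 0.21, -0.35 and 0.15, and IDH2 (YOR136W) had -0.16, -0.12 and 0.12. Neither gene held 1 sign on all arrays, and their means were 0.00 ± 0.31 and -0.05 ± 0.15 (adjusted p = 0.993 and 0.816).

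The 2-oxoglutarate dehydrogenase complex joins the E1 subunit Kgd1, the lipoyl-bearing E2 subunit Kgd2 and the E3 subunit Lpd1, which the pyruvate dehydrogenase complex also uses. KGD1 (YIL125W) had 0.24, -0.03 and 0.77 on replicates 1, 2 and 3. KGD2 (YDR148C) had 0.55, 0.22 and 0.32, and LPD1 (YFL018C) had 0.32, 0.24 and 0.09. KGD2 and LPD1 were above 0 on every array, whereas KGD1 ranged from near 0 on replicate 2 to a high reading on replicate 3. Their means of 0.33 ± 0.41, 0.36 ± 0.17 and 0.22 ± 0.12 had adjusted p of 0.217, 0.109 and 0.297.

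Succinyl-CoA ligase, which forms ATP at the substrate level, has the subunits Lsc1 and Lsc2. LSC1 (YOR142W) had 0.37, 0.41 and 0.55, the tightest set of positive values among the cycle genes, with a mean of 0.45 ± 0.09 and a 95% interval from 0.12 to 0.77. LSC2 (YGR244C) had 0.16, -0.05 and 1.35, and so was high on replicate 3 alone. Its mean of 0.49 ± 0.75 (adjusted p = 0.197) had the widest interval of the 30 genes, from -0.11 to 1.08. LSC2 held no value on the low-power scan of that array, so the high reading has no second scan beside it.

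FUM1 (YPL262W), whose single gene supplies fumarase to mitochondria and cytosol, had -0.03, 0.37 and 0.31, with a mean of 0.22 ± 0.21 (adjusted p = 0.324). MDH1 (YKL085W), the mitochondrial malate dehydrogenase that closes the cycle, had -0.29, -0.30 and 0.25. The 2 lower readings came from replicates 1 and 2, and the mean was -0.11 ± 0.31 (adjusted p = 0.644). Of the 11 tested mitochondrial cycle genes, 0 rose and 0 fell, beside 23.5% of all genes called in either direction. An unadjusted p under 0.05 was held by 2 of the 11 (18.2%), beside 40.2% of all genes. Their median log2 ratio was 0.22, against -0.04 over all genes.

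NADP-linked isocitrate dehydrogenases make NADPH and 2-oxoglutarate in 3 compartments. IDP1 (YDL066W), the mitochondrial form, had 0.48, 0.22 and 0.85, all above 0, with a mean of 0.52 ± 0.32. IDP2 (YLR174W), the cytosolic form, had 0.51, -0.03 and 0.67, with a mean of 0.38 ± 0.36 (adjusted p = 0.139). IDP3 (YNL009W), the peroxisomal form that supports the breakdown of unsaturated fatty acids, had 0.34, -0.39 and -0.41, with a mean of -0.15 ± 0.43 (adjusted p = 0.577). IDP3 was the lowest of the 3 genes on each array.

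In the glyoxylate cycle, 0 of 5 genes passed the threshold, beside 23.5% of all genes. CIT2 (YCR005C), the peroxisomal citrate synthase and the usual reporter of the retrograde pathway from mitochondria to nucleus, had -0.53, -0.17 and -0.62. All 3 readings lay below 0, with a mean of -0.44 ± 0.24 and a 95% interval from -0.80 to -0.08 (adjusted p = 0.0738). ICL1 (YER065C), isocitrate lyase, had -0.22, 0.08 and -0.17, with a mean of -0.10 ± 0.16. MLS1 (YNL117W), malate synthase, had -0.64, 0.37 and 0.13, a wide scatter around a mean of -0.05 ± 0.53. MDH2 (YOL126C), the cytosolic malate dehydrogenase used by this cycle and by gluconeogenesis, had -0.10, -0.12 and 0.44. MDH3 (YDL078C), the peroxisomal form, had 0.07, 0.15 and -0.02, close to 0 on every array.

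The key enzymes of gluconeogenesis did not pass either. PCK1 (YKR097W), which makes phosphoenolpyruvate from oxaloacetate, had 0.41, 0.31 and 0.54, above 0 throughout, with a mean of 0.42 ± 0.11 and a 95% interval from 0.09 to 0.75. FBP1 (YLR377C), fructose-1,6-bisphosphatase, had -0.07, 0.11 and 0.18, with a mean of 0.07 ± 0.13 (adjusted p = 0.737). Both genes lacked a value on the low-power scans.

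ACS1 and ACS2 activate acetate to acetyl-CoA, ACS1 (YAL054C) being the form that glucose represses and ACS2 (YLR153C) the form used during growth on glucose. ACS1 had 0.20, 0.68 and 0.33, with a mean of 0.40 ± 0.25 (adjusted p = 0.0952). ACS2 had 0.12, 0.37 and 1.09, with a mean of 0.53 ± 0.50 (adjusted p = 0.0897) that was the highest of the 30. All 6 readings were above 0. Without replicate 3, ACS2 averaged 0.25.

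Pyruvate carboxylases refill oxaloacetate. PYC1 (YGL062W) had 0.28, -0.01 and 0.47, and PYC2 (YBR218C) had -0.13, -0.57 and 0.11. Their means were 0.25 ± 0.25 and -0.20 ± 0.35 (adjusted p = 0.272 and 0.426). The genes are closely similar in sequence, and whether their probes share signal was not tested. MAE1 (YKL029C), the mitochondrial malic enzyme, had 0.01, 0.37 and 0.48, with a mean of 0.29 ± 0.25 (adjusted p = 0.215).

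Among transporters, CTP1 (YBR291C), the mitochondrial citrate carrier, had -0.93, -0.15 and -0.41, with a mean of -0.50 ± 0.40 (adjusted p = 0.0791). JEN1 (YKL217W), the plasma membrane permease for lactate and pyruvate, had 0.86, 0.79 and -0.13. It was high on replicates 1 and 2 and not on replicate 3, with a mean of 0.51 ± 0.55 (adjusted p = 0.112). Without replicate 3 its mean was 0.82 and it passed the threshold (adjusted p = 0.0115). SFC1 (YJR095W), which exchanges cytosolic succinate for mitochondrial fumarate, had -0.68 on replicate 3 and no other value.

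CAT8 (YMR280C), the zinc-cluster activator of gluconeogenic and glyoxylate genes, was the gene that fell. Its log2 ratios were -0.49, -0.77 and -0.41, all below 0, with a mean of -0.56 ± 0.19, or 0.678-fold (95% interval 0.534 to 0.862; adjusted p = 0.0329). It missed the threshold when replicate 1 (adjusted p = 0.130) or replicate 2 (0.120) was left out, with ratios corrected for gene length (0.0542), and with the mean of both scans for replicate 3 (0.0861), where the low-power scan read 0.21. ADR1 (YDR216W), the activator of genes for ethanol, glycerol and fatty acid use, had -0.37, -0.79 and 0.21, with a mean of -0.32 ± 0.50 (adjusted p = 0.270).

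Of the genes above, 9 are known to depend on Cat8 during growth without glucose: ICL1, MLS1, PCK1, FBP1, ACS1, SFC1, JEN1, MDH2 and IDP2. This grouping was made with the values in view. Of the 8 tested, 0 rose and 0 fell, beside 23.5% of all genes called in either direction. Their median log2 ratio was 0.23, against -0.04 over all genes. Of 5 genes known to be under retrograde control in cells with impaired respiration (CIT1, CIT2, ACO1, IDH1 and IDH2), 4 were tested. Of these 4, 0 rose and 0 fell, beside the same 23.5% of all genes, and the median was -0.14.

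Isoenzymes, and subunits of the same enzyme complex, were compared within each array, as the difference between their log2 ratios. Both kinds together made 16 pairs with values on all 3 arrays. An exact sign-flip permutation test over 3 arrays (two-sided) cannot give a p below 0.25, and after Benjamini-Hochberg adjustment over the 16 pairs the smallest was 0.667, so the pairs are described by size, spread and order. Peroxisomal CIT2 lay below mitochondrial CIT1 on all 3 arrays, by a mean difference of -0.21 ± 0.10 (exact p = 0.25). CIT3 lay above CIT2 on all 3, by 0.39 ± 0.10 (exact p = 0.25). Both differences were at least 2 times their SD.

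Peroxisomal IDP3 lay below mitochondrial IDP1 on each array, by -0.13, -0.61 and -1.26. It lay below cytosolic IDP2 by -0.16, -0.37 and -1.08. The order was shared, but the size varied with the array, and the means were -0.67 ± 0.56 and -0.54 ± 0.48 (exact p = 0.25 each). IDP2 minus IDP1 had a mean of -0.13 ± 0.14 with readings on both sides of 0 (exact p = 0.5).

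The malate dehydrogenases showed a different order. Cytosolic MDH2 lay above mitochondrial MDH1 by 0.18, 0.18 and 0.19 on the 3 arrays, with a mean of 0.18 ± 0.0036 (exact p = 0.25), although each gene moved by over 0.5 between replicates 2 and 3. The replicate 2 value averages 2 unlike scans. MDH2 and MDH1 read -0.16 and -0.24 at high power, and -0.07 and -0.36 at low power. With only the high-power or low-power scan of array 2, the mean difference was 0.15 or 0.22, so the small SD belongs to the averaged scans. Peroxisomal MDH3 lay above both on replicates 1 and 2 and below both on replicate 3. MDH3 minus MDH1 averaged 0.18 ± 0.39 (exact p = 0.5) and MDH3 minus MDH2 averaged -0.00 ± 0.39 (exact p = 1). Peroxisomal forms therefore held the lowest mean of their family for citrate synthase and NADP isocitrate dehydrogenase and not for malate dehydrogenase.

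**Figure D2:**
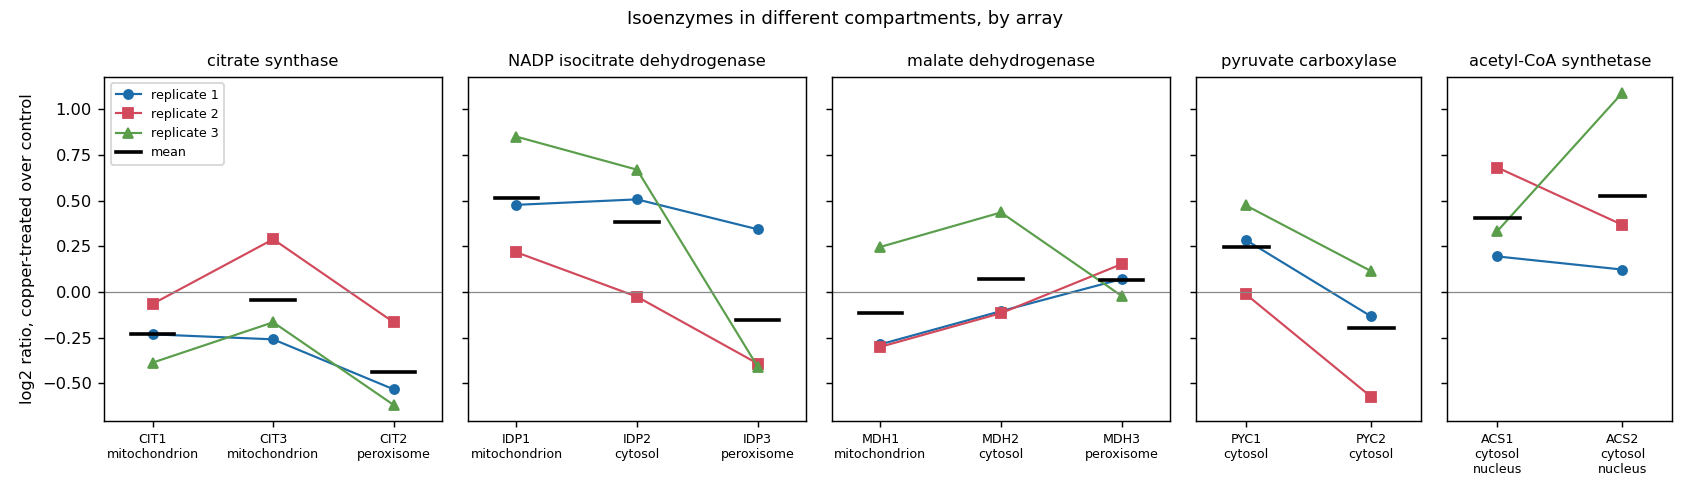
Log2 ratios of isoenzyme genes, a panel for each enzyme, with the compartment under the gene name. Lines join the genes on 1 array and black bars are means. IDP3 is the lowest of its family and CIT2 of its family on every array, while the lines of MDH1 and MDH2 run parallel.

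PYC2 lay below PYC1 on all 3 arrays, by -0.42, -0.56 and -0.36, a mean difference of -0.45 ± 0.10 (exact p = 0.25). That difference was 4.30 times its SD, although neither gene passed the test against 0. The acetyl-CoA synthetases had no fixed order: ACS1 minus ACS2 averaged -0.12 ± 0.56 and was positive on 2 arrays (exact p = 1). Subunits of one enzyme had mean differences of -0.06 ± 0.30 (IDH2 minus IDH1), 0.03 ± 0.42 (KGD2 minus KGD1) and 0.04 ± 0.66 (LSC2 minus LSC1), each smaller than its SD.

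Succinate dehydrogenase, the step of the cycle left out of the 32 genes, held more calls. In its list of subunit and assembly genes, 4 of 7 tested rose and 0 fell (57.1%, beside 23.5% of all genes). These were SDH1 (1.06 ± 0.30), SDH2, SDH4 (0.72 ± 0.41) and the assembly factor gene SDH8 (0.61 ± 0.39). SDH3, the remaining subunit gene, had 0.27, 1.34 and 0.46 and did not pass (adjusted p = 0.0513). Its mean of 0.69 ± 0.57 was the lowest of the subunit genes. SDH4 missed the threshold without replicate 2 (adjusted p = 0.107), and SDH8 without replicate 1 (0.0622) or 2 (0.168, mean 0.39), with the length correction (0.109) and with genes needed on only 2 arrays (0.0533). SDH2, the iron-sulfur subunit, had 0.98, 1.13 and 1.05 on the 3 arrays, with a mean of 1.05 ± 0.08. The median of the 4 subunit genes was 0.82, 1.14 and 0.75 on replicates 1, 2 and 3, and that of the 11 tested mitochondrial cycle genes was 0.16, -0.03 and 0.25. The mean difference of these medians, subunits minus cycle genes, was 0.78 ± 0.35, positive on 3 of 3 arrays (exact sign-flip p = 0.25, the smallest possible). Of those cycle genes 0 had a mean above the lowest subunit mean. Earlier results of these data had already shown the subunit genes to be high.

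Further genes around the cycle were read from 11 lists of 82 tested genes in all, of which 15 rose and 6 fell (25.6%, near the 23.5% of all genes). Without replicate 2 these counts were 6 and 2. List medians lay between -0.27 for the GID complex and 0.69 for succinate dehydrogenase, against -0.04 over all genes and 0.07 for the 30 genes. In the pyruvate dehydrogenase list 1 of 6 rose and 0 fell (16.7%, beside 23.5% of all genes). That gene, PKP1, a kinase that inhibits the complex, had 1.17, 1.43 and 0.90 and a mean of 1.16 ± 0.26 (adjusted p = 0.00351). PKP2, the other kinase of the list, had -0.55, -0.94 and -0.15, below 0 on every array, with a mean of -0.55 ± 0.40 (adjusted p = 0.0602). Genes for subunits of the complex itself had means of -0.11 (PDA1), 0.01 (PDB1) and 0.04 (LAT1) and did not pass. Of 4 tested genes for lipoic acid attachment, 0 passed, beside 23.5% of all genes.

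Of 7 further enzymes near the cycle, 2 rose and 0 fell (28.6%, beside 23.5% of all genes). AGX1, which turns glyoxylate into glycine, had 1.24, 1.48 and 0.61 (mean 1.11 ± 0.45, adjusted p = 0.00815). ICL2, the mitochondrial 2-methylisocitrate lyase related to ICL1, had a mean of 0.48 ± 0.10 (adjusted p = 0.0453), a call lost when any 1 array was left out, with adjusted p between 0.0562 and 0.280. Among 10 mitochondrial carriers, 3 rose and 0 fell (30.0%, beside 23.5% of all genes). ODC1, which exports 2-oxoglutarate, had 0.95, 1.10 and 0.68 (mean 0.91 ± 0.21, adjusted p = 0.00756), and its paralogue ODC2 had a mean of 0.48 ± 0.16 (adjusted p = 0.0497, lost without any 1 array). DIC1, the dicarboxylate carrier, had 0.70, 1.45 and 0.20 (mean 0.78 ± 0.63), and without replicate 2 averaged 0.45 (adjusted p = 0.149).

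**Figure D3:**
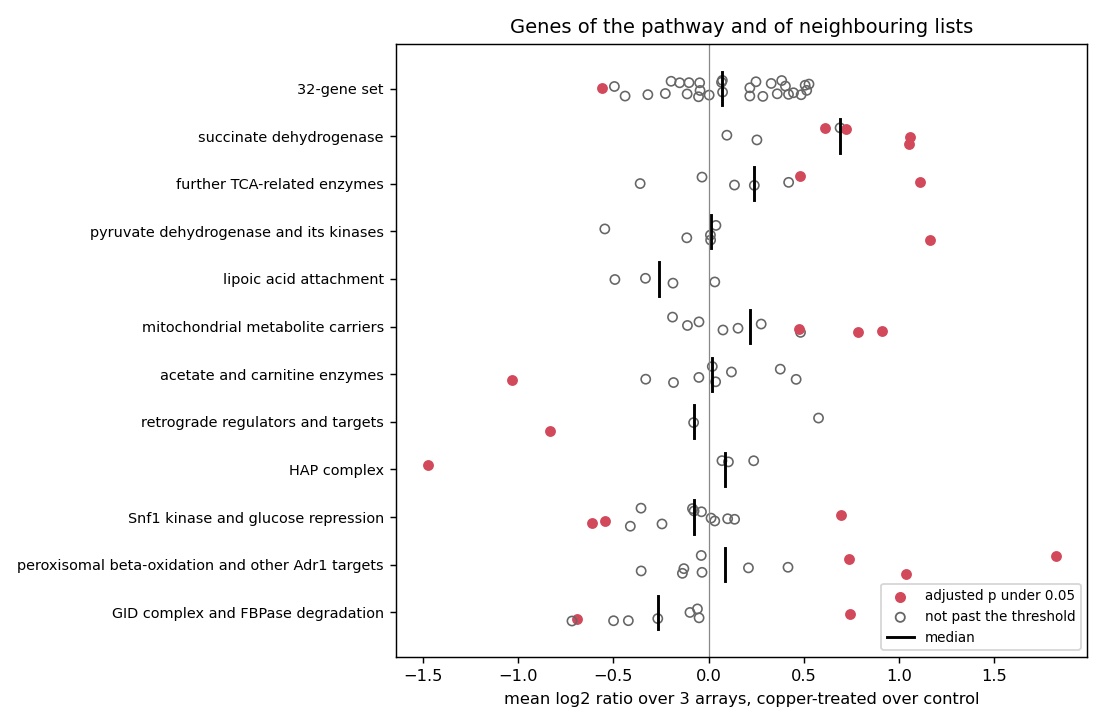
Mean log2 ratio of each tested gene of the 32-gene set and of 11 neighbouring lists, with filled points for genes past an adjusted p of 0.05 and black ticks for medians. The set holds 1 filled point, CAT8, whereas the succinate dehydrogenase list holds 4.

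Of 4 tested Hap genes 0 rose and 1 fell (25.0%, beside 23.5% of all genes). HAP4, the limiting activator subunit of the Hap complex that drives cycle and respiratory genes, had -1.51, -1.62 and -1.29 and fell by 1.48 ± 0.17 on the log2 scale, to 0.360-fold (adjusted p = 0.00152). Genes of the other 3 subunits, HAP2, HAP3 and HAP5, had means of 0.10, 0.24 and 0.07 and did not pass. In the Snf1 and glucose repression list 1 of 13 rose and 2 fell, a called share of 23.1% beside 23.5% of all genes. MIG2, a repressor that acts on glucose, rose by 0.69 ± 0.24. GLC7, the phosphatase that opposes Snf1, fell by 0.61 ± 0.18, and SNF4, the Snf1 activating subunit, by 0.54 ± 0.28. Leaving out an array ended the call for MIG2 (without replicate 2), for GLC7 (without any 1) and for SNF4 (without replicate 1 or 2), with adjusted p of 0.0719 (MIG2), 0.0566 to 0.0785 (GLC7), and 0.220 and 0.158 (SNF4). SNF4 also missed the threshold under 4 other alternatives, with adjusted p between 0.0522 and 0.0550. Of 3 tested genes of the retrograde list 0 rose and 1 fell (33.3%, beside 23.5% of all genes). That gene, LST8, for a subunit of the TOR complexes, had -1.12, -1.01 and -0.36 (mean -0.83 ± 0.41). It missed the threshold when replicate 1 (adjusted p = 0.0709) or replicate 2 (0.0617) was left out.

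Of 10 tested genes of fatty acid oxidation and other Adr1 targets, 3 rose and 0 fell (30.0%, beside 23.5% of all genes). Means lay above 0 for 5 of the 10 genes and below 0 for 5, with a median of 0.09. POX1, peroxisomal acyl-CoA oxidase, had 2.09, 2.82 and 0.56, high on replicates 1 and 2, with a mean of 1.83 ± 1.15 (adjusted p = 0.0132) and 2.46 without replicate 3. POT1, the thiolase of the same pathway, had 1.24, 1.62 and 0.25 (mean 1.03 ± 0.71), and FAA2, an acyl-CoA synthetase, had 0.81, 1.26 and 0.14 (mean 0.74 ± 0.57). POT1 was not called without replicate 2 (adjusted p = 0.0803), nor FAA2 without replicate 1 (0.0627) or 2 (0.157). Without replicate 3 their means were 1.43 and 1.04. FOX2 (0.21 ± 0.21, adjusted p = 0.339) and PXA1 (-0.35 ± 0.19, adjusted p = 0.118) of the same list did not pass, and PXA1 was below 0 on every array. ADH2 and CTA1, 2 classical Adr1 targets, had means of -0.13 ± 0.49 and -0.14 ± 0.39 and did not pass.

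In the acetate and carnitine list 0 of 9 rose and 1 fell (11.1%, beside 23.5% of all genes). That gene, ATO3, for a membrane protein of the acetate and ammonium transporter family, had -1.17, -1.02 and -0.91 (mean -1.04 ± 0.13, adjusted p = 0.00388). The GID ubiquitin ligase, which removes Fbp1 and Pck1 when glucose returns, had 1 of 9 list genes higher (GID7, 0.74 ± 0.18) and 1 lower (FYV10, -0.69 ± 0.29). The called share was 22.2%, beside 23.5% of all genes. GID7 alone had a mean above 0, and the other 8 list genes had means below 0, as had 2628 of all 4824 genes. Without replicate 2 the calls of GID7 and FYV10 were lost (adjusted p = 0.0525 and 0.0838).

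The scans add a second reading of the same hybridisations. For 22 of the 32 genes replicate 2 had both scans, which differed by a median of 0.091 and at most 0.28. On replicate 3 they differed by a median of 0.11 over 25 genes, and by over 0.3 for 3 of them: KGD2, CTP1 and CAT8. CAT8 had the largest gap, 0.63. CTP1 read -0.41 on the high-power and 0.02 on the low-power scan. Of the 9 Cat8-dependent genes, 2 held a value on the low-power scan of replicate 2, against 11 of the 12 mitochondrial cycle genes and 50.8% of all genes. Why a spot lacked a value is not given in the sources used here.

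**Figure D4:**
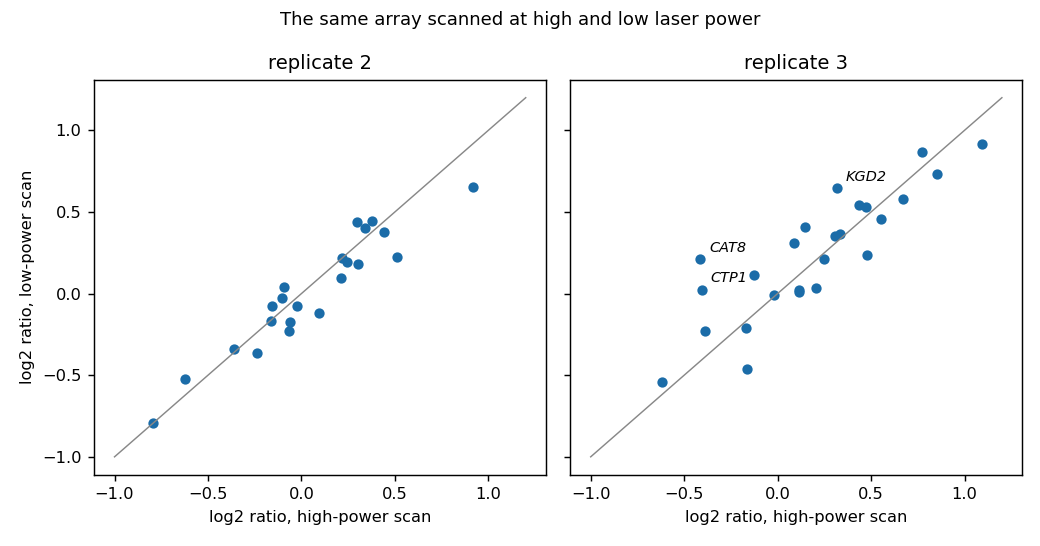
Log2 ratio on the low-power scan against that on the high-power scan of the same array, for genes of the 32 with both values, on replicates 2 and 3. The line marks equality, and the 3 named genes differ by over 0.3.

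Replicate 3 gave the highest reading of the 3 arrays for 16 of the 30 tested genes (53.3%), against 37.6% of all genes. The median of the 30 was 0.04 on replicate 1, 0.03 on replicate 2 and 0.19 on replicate 3.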

How the data were processed

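The authors deposited log2 ratios of the 2 channels for each scan, LOWESS-normalized on spots flagged 0, per the labels. The base follows from the lowest value, -6.64, the log2 of 0.01. Scan medians lay between -0.025 and -0.0017, so scale and centring are known and the direction is likely. No build or scanner is named, and no coordinates are printed. Of 6912 probes, 5446 had 1 gene symbol and 1466 none, and all 5446 matched the R64 gene table.

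Replicate 1 was its single scan, replicate 3 its high-power scan, and replicate 2 the mean of both scans or the scan that had a value. Probes of a gene were averaged. The 4824 genes measured on all 3 arrays were fitted with limma (version 3.58.1, R 4.3.3; lmFit, then eBayes). The mean was tested against 0, two-sided, with Benjamini-Hochberg adjustment over all of them and a threshold of 0.05. The fit was tested on simulated data. All 32 genes are named, and from each list up to 4 called genes, those of largest mean. SDH3, PKP2, PDA1, PDB1, LAT1, HAP2, HAP3, HAP5, FOX2, PXA1, ADH2 and CTA1 were added after their values were seen. Genes and lists were chosen with earlier results of these data known. LIP3 in a list is a synonym of AIM22 and was counted once. Alternatives changed the joining of scans, centring, scaling, arrays needed, variance estimate, array weights, gene length (loess, span 0.4, degree 1) and arrays kept.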

Additional observations from a re-analysis of the deposited data

How the results depend on the processing

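Of the alternatives, 13 were run, all planned. Over the 30 tested central carbon genes they gave 371 values, 334 of which kept their direction and side of the threshold. A further 22 passed the threshold only under the alternative, 4 (all CAT8) lost it and 11 changed sign, all in 6 genes whose mean was within 0.152 of 0. The higher and lower calls among the 30 genes were 2 and 1 with only the low-power scan used for array 2 (21 genes tested), 0 and 0 with both scans averaged for array 3 (where ACO1, not one of the 30, was called higher, 1 and 0 with it), 4 and 1 with all 5 scans and the array as a random block (20 tested), 3 and 1 with centring, 5 and 3 with array weights and 3 and 0 with the length correction. Leaving out each array in turn gave 0 to 1 higher and 0 to 1 lower. Over all genes, lower calls were 349 with that scan and 373 with the block, where fewer genes were tested (2686 and 2493), and leaving out an array gave 276 to 573 higher and 218 to 638 lower. The fit without replicate 1 had infinite prior degrees of freedom, so all genes shared a single variance. The neighbouring lists gave 11 lower calls with array weights, and 6 to 15 higher and 2 to 9 lower with an array left out. With genes needed on only 2 arrays, ICL2, ODC2, DIC1 and FAA2 were not called (adjusted p between 0.0528 and 0.0582), nor were ICL2 (0.05002) and ODC2 (0.0523) with only the high-power scan of array 2, or ODC2 with both scans averaged for array 3 (0.0617).

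The sign changes were these, and apart from the fewer genes or arrays that an alternative keeps, the cause was not tested. With only the high-power scan used for array 2, IDH1 was -0.00086 and MDH3 minus MDH2 was 0.029. With array weights IDP3 was 0.039. With the length correction CIT3 was 0.010, IDH2 0.00040, MLS1 0.0080 and KGD2 minus KGD1 -0.013, and with scaling that pair was -0.0022. With an array left out, CIT3 ranged from -0.21 to 0.062, IDH1 from -0.10 to 0.18, MLS1 from -0.26 to 0.25 and MDH2 from -0.11 to 0.17. The pairs ranged from -0.20 to 0.10 (IDH2 minus IDH1), -0.10 to 0.28 (KGD2 minus KGD1), -0.14 to 0.22 (MDH3 minus MDH2), -0.34 to 0.19 (ACS1 minus ACS2), -0.30 to 0.18 (LPD1 minus KGD1) and -0.34 to 0.29 (LSC2 minus LSC1). Each array is itself a ratio of treated to control, so treatment and control are already paired in every value. With only 1 group, no further pairing of samples was possible.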
